A study of Mus musculus with 6 samples.

Results

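A group of 10 genes of the hypoxia-inducible factor (HIF) pathway was examined: Hif1a, Epas1, Arnt, Egln1, Egln2, Egln3, Hif1an, Vhl, Vegfa and Bnip3. They were chosen by gene symbol from the 54532 genes of the deposited table, and all 10 were found once. Expression was measured by RNA sequencing in cultured mouse aortic smooth muscle cells, which build and contract the arterial wall. The labels give the genotype of all 6 libraries as WT, and by the study's methods such cells were cultured from the aorta of mice aged 10 weeks. All cells had received an adenoviral vector with either a control plasmid (Ad-Con, 3 libraries) or an overexpression plasmid for pyruvate dehydrogenase kinase 4 (Ad-PDK4, 3 libraries). PDK4 is a mitochondrial kinase that shuts off the pyruvate dehydrogenase complex, the gate from glycolysis into the citric acid cycle. Both groups were then given angiotensin II, a pressor hormone, at 1 μM for 48 h, so that the control cells carried the vector and the hormone as well. A change in RNA per cell and a change in the mix of cells cannot be told apart in such bulk libraries. The study's figure legends give 3 biological replicates for this sequencing. Nothing in the labels says that the 3 libraries of a group came from separate mice or cultures, so the p-values measure the spread between libraries only.

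HIF is a pair of proteins, an alpha subunit that oxygen destroys and a stable beta subunit. Hif1a and Epas1 encode the alpha subunits, known as HIF1A and HIF2A, and Arnt encodes the beta subunit that both need to bind DNA. When oxygen is present, the prolyl hydroxylases encoded by Egln1, Egln2 and Egln3 mark the alpha subunits, the von Hippel-Lindau protein (Vhl) recognises the mark and recruits a ubiquitin ligase, and the proteasome degrades them. A separate asparaginyl hydroxylase, encoded by Hif1an, keeps the alpha subunits from their coactivators. When oxygen falls, or when the hydroxylases are blocked, HIF accumulates and switches on genes for glucose uptake, glycolysis, vessel growth and mitochondrial turnover, among them the growth factor gene Vegfa and the mitophagy receptor gene Bnip3. Because this control acts on protein stability, RNA levels of the subunits and their regulators report the supply of each part and not HIF activity. Vegfa and Bnip3 are target genes, and HIF protein was not measured in these libraries.

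HIF binds a short DNA element with the core ACGTG or GCGTG. These letters were searched on both strands in the 250 bases before each RefSeq transcription start (GRCm38.p6), and the sequences below are the ACGTG matches that stood before members, with the core in capitals and 12 bases on either side, read along the strand of the gene. They are shown because some of the members, Vegfa, Bnip3, Egln1 and Egln3, are themselves known HIF targets. The Vegfa match lies on the opposite strand and so appears as CACGT.
Hif1a, chr12:73907721-73907749, plus strand: acacagacaagcACGTGagcggggcagct
Hif1a, chr12:73907785-73907813, plus strand: tggctgagagcaACGTGggctggggtggg
Egln1, chr8:124949306-124949334, minus strand: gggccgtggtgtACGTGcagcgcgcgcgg
Egln2, chr7:27166834-27166862, minus strand: agcctcctgtcaACGTGcggttcgcgcac
Egln3, chr12:54204087-54204115, minus strand: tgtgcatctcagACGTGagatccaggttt
Vegfa, chr17:46025358-46025386, minus strand: ggagtgcgtgccCACGTcagagagcaaca
Bnip3, chr7:138909597-138909625, minus strand: cgcacgcgccgcACGTGccacacgctccc

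RefSeq gave a promoter entry for 9 of the 10 members, all but Epas1. Of the 9, 6 held ACGTG and 7 held either core, while Arnt held GCGTG alone and the windows of Hif1an and Vhl held neither. Among 9400 tested genes with an entry, 25.4% held ACGTG and 62.2% either core, and among all 27025 genes with an entry 18.5% and 41.5% did. The first Hif1a match and the Bnip3 match sit in the palindrome CACGTG, an E-box, so that ACGTG is read there on both strands. The core stood 134 and 70 bases before the start of Hif1a, 68 before that of Egln1, 48 before that of Egln2, 229 before that of Egln3 and 107 before that of Bnip3. In the GENCODE M21 annotation the Hif1a matches lie in an intron, because a longer transcript starts upstream, the Vegfa match lies in an exon, since it precedes the inner of 2 annotated starts of that gene, and the Egln1 stretch runs 19 bases into the first exon. The other printed stretches lie outside their gene. A match of 5 letters describes the sequence and says nothing of binding in these cells.

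Total reads assigned to genes ran from 17588942 to 21861872 per library, and each member had between 49 and 5139 reads in every library. Expression is given as FPKM, fragments scaled by gene length and library size, so that levels of different genes are compared per length. Pdk4 itself, which checks the labels, was at 9.50, 10.4 and 10.1 FPKM in Ad-Con replicates 1, 2 and 3 and at 7.67, 7.40 and 7.38 in the same order of Ad-PDK4. It was lower under the overexpression label (log2 fold change -0.42, limma adjusted p = 0.00114), and whether reads from the plasmid insert enter this count is not known. Groups are therefore named by their labels, and a gene called higher or lower is so under the Ad-PDK4 label. Of 8 smooth muscle markers only Acta2, Smtn and Lmod1 passed the filter on low levels, and Myh11, Tagln, Des and Cnn1 had mean FPKM of at most 0.466 in either group. Mylk, also under the filter and not tested, had 188, 168 and 122 reads in the Ad-Con libraries and 27, 28 and 24 in the Ad-PDK4 libraries. Des and Cnn1 were lower without overlap as well, while Myh11 and Tagln overlapped between the groups. The summed FPKM of these 8 markers was 87.8 to 89.4 in the Ad-Con libraries and 43.3 to 48.1 in the Ad-PDK4 libraries. Most of that sum was Acta2, which fell from a mean of 78.0 to 36.2 FPKM (limma adjusted p = 5.28e-06), while Smtn (8.32 and 8.44 FPKM) and Lmod1 (0.720 and 0.570 FPKM) did not pass. All 5 fibroblast markers passed the filter, and their list was mixed: Col1a1, Col3a1 and Lum fell, Dcn rose from a mean of 90.1 to 160.6 FPKM (limma adjusted p = 0.000404) and Pdgfra did not pass (20.5 and 19.9 FPKM). Their sum, 1247 to 1341 FPKM in the Ad-Con libraries and 661 to 734 in the Ad-PDK4 libraries, was mostly Col1a1 (means of 1056 and 434.8 FPKM). The part of these marker differences in the HIF results was not tested. The 8 endothelial markers summed to between 0.152 and 0.348 FPKM in every library, and Tie1, Emcn and Cldn5 had no read in any. Of 8 macrophage markers, Ptprc, Tyrobp, C1qa and C1qb had no read in any library, while Cd68 kept the sum at 15.0 to 17.9 and 5.91 to 7.44 FPKM. Cd68 fell from a mean of 14.2 to 4.24 FPKM (limma adjusted p = 0.000439). Csf1r went the other way, with 11, 23 and 35 reads against 56, 62 and 61, and was under the filter. Lyz2 was at means of 1.51 and 1.98 FPKM, without overlap, and did not pass (limma adjusted p = 0.0791).

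The question was which parts of the HIF system differed in RNA level between the groups. The test covered 13423 genes, those whose FPKM averaged 0.5 or more. Of these 21.8% rose and 20.8% fell under the Ad-PDK4 label, and 42.7% did either, at a Benjamini-Hochberg adjusted p under 0.05 in limma. Of the 10 members, 3 rose (Hif1a, Egln1 and Vegfa), 2 fell (Epas1 and Bnip3) and 5 did not pass (Arnt, Egln2, Egln3, Hif1an and Vhl), so the number called was close to that of the table as a whole. Log2 fold changes are those of FPKM + 0.1, an addition that understates the change of genes at low levels. The median log2 fold change of the members was 0.08, beside -0.003 over all genes tested. The groups did not overlap for 7 members, the 5 called ones with Arnt and Hif1an, where 54.3% of all tested genes did not. A fold change of at least 2 was reached by Epas1 alone, a share of 1 in 10 where 2.68% of all tested genes were called lower and at least 2-fold.

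**Figure D1:**
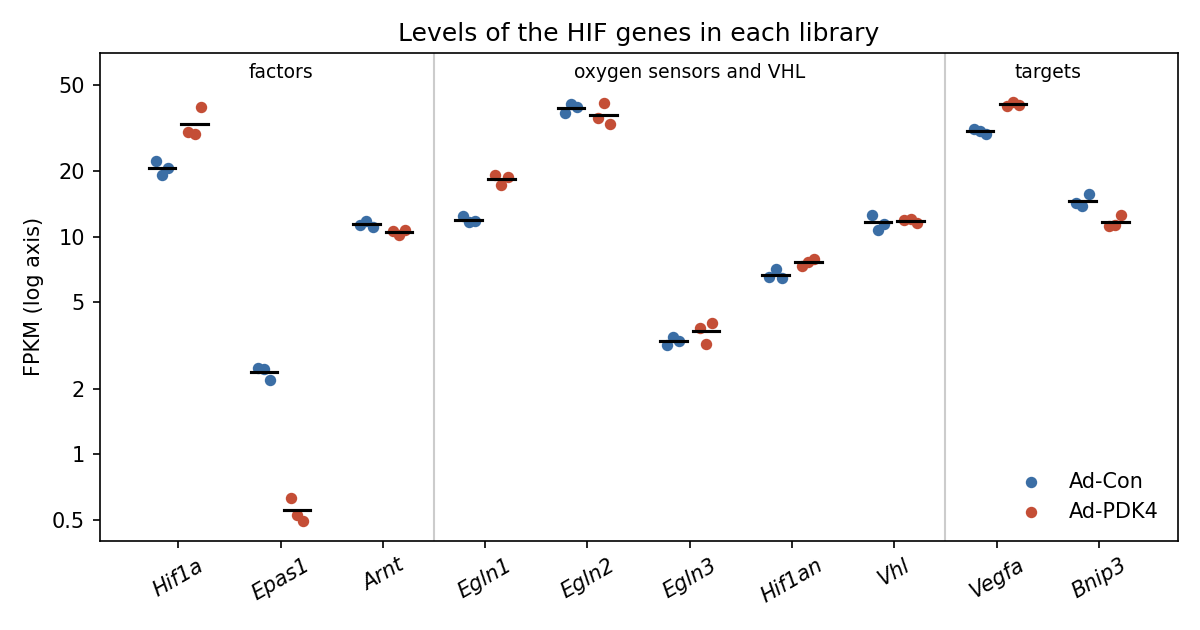
FPKM of the 10 members in each library on a log axis, grouped by role, with Ad-Con in blue and Ad-PDK4 in red; each point is 1 library and each bar is the group mean. Epas1 sits between 2.20 and 2.49 FPKM in the Ad-Con libraries and between 0.495 and 0.631 in the Ad-PDK4 libraries, while Hif1a goes from at most 22.4 to at least 29.6.

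The alpha subunits moved in opposite directions. Hif1a (ENSMUSG00000021109, chr12:73901375-73947530, plus strand), the widely expressed subunit that drives the glycolytic response, had 22.4, 19.3 and 20.6 FPKM in the Ad-Con libraries and 30.4, 29.6 and 39.5 in the Ad-PDK4 libraries. All 3 Ad-PDK4 libraries lay above all 3 Ad-Con libraries, and Ad-PDK4 replicate 3 stood well above the other 2. The mean rose 1.60-fold, from 20.8 ± 1.52 to 33.2 ± 5.48 FPKM (SD, n = 3), or 0.66 on the log2 scale (SE 0.11, 95% interval 0.39 to 0.93, limma adjusted p = 0.00295). Leaving out that library gave 0.53 (limma adjusted p = 0.00172). Of its longest transcript, 10.3% is shared with Gm15283, an antisense RNA with 16 to 32 reads per library, and Gm49321, which had none; Hif1a had at least 2001.

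Epas1 (ENSMUSG00000024140, chr17:86753907-86833410, plus strand), the subunit best known from endothelium and from the control of erythropoietin and iron genes, had 2.49, 2.46 and 2.20 FPKM in the Ad-Con libraries and 0.631, 0.527 and 0.495 in the Ad-PDK4 libraries. The groups stood far apart, with the lowest Ad-Con library more than 3 times the highest Ad-PDK4 library. The mean fell from 2.38 ± 0.157 to 0.551 ± 0.0714 FPKM (SD, n = 3), 4.32-fold lower, or -1.93 on the log2 scale (SE 0.15, 95% interval -2.29 to -1.58, limma adjusted p = 4.75e-05). Only 2.36% of the tested genes had a larger change in either direction. The counts behind these values were 269, 229 and 212 reads against 61, 49 and 58. In both groups the spread between libraries (coefficient of variation 6.59% and 13.0%) stood beside 6.50% and 13.4% from read counting alone, which covers counting error only. At a pseudocount of 1 in place of 0.1 the log2 fold change was -1.12 (limma adjusted p = 3.52e-05), because that addition exceeds the level of the gene in the Ad-PDK4 libraries.

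Arnt (ENSMUSG00000015522, chr3:95434388-95497240, plus strand), the shared partner, had 11.4, 11.8 and 11.1 FPKM in the Ad-Con libraries and 10.6, 10.2 and 10.7 in the Ad-PDK4 libraries. The groups did not overlap, but the difference was small, -0.12 on the log2 scale (95% interval -0.25 to 0.01, limma adjusted p = 0.115). Under quantile normalization it was -0.19 and past the threshold (limma adjusted p = 0.0259).

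Set against each other per library, the RNA of the alpha subunits changed in balance. Hif1a exceeded Epas1 8.98, 7.87 and 9.37 times in the Ad-Con libraries and 48.1, 56.2 and 79.8 times in the Ad-PDK4 libraries, with means of 8.74 ± 0.782 and 61.4 ± 16.5 (SD, n = 3). The summed FPKM of the alpha subunits was 23.2 ± 1.56 and 33.7 ± 5.43, so nearly all of it was Hif1a in both groups. Arnt amounted to 0.495 ± 0.0441 of that sum in the Ad-Con libraries and 0.316 ± 0.0417 in the Ad-PDK4 libraries. These ratios restate the gene levels and were given no test.

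**Figure D2:**
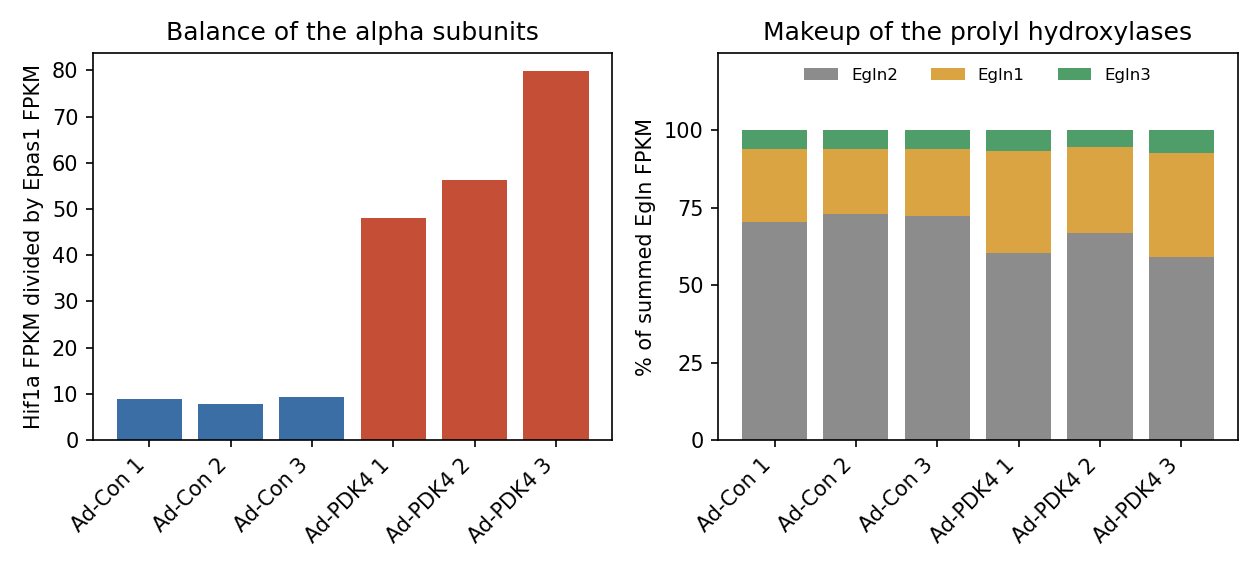
Left, Hif1a FPKM divided by Epas1 FPKM in each library, with Ad-Con in blue and Ad-PDK4 in red; right, the share of Egln1, Egln2 and Egln3 in their summed FPKM in each library, in percent. The ratio is at most 9.37 in the Ad-Con libraries and at least 48.1 in the Ad-PDK4 libraries, and the Egln1 share is at most 23.6% and at least 28.1%.

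Among the oxygen sensors, Egln1 rose while the other hydroxylases did not pass the test. Egln1 (ENSMUSG00000031987, chr8:124908587-124949324, minus strand) encodes PHD2, the main prolyl hydroxylase for the alpha subunits under normal oxygen and a HIF target in its own right. It had 12.4, 11.7 and 11.8 FPKM in the Ad-Con libraries and 19.3, 17.3 and 18.7 in the Ad-PDK4 libraries. No library of one group reached the other. The mean rose 1.54-fold, from 11.9 ± 0.397 to 18.4 ± 1.03 FPKM (SD, n = 3), or 0.62 on the log2 scale (SE 0.06, 95% interval 0.48 to 0.76, limma adjusted p = 0.000143). Egln1 and Hif1a kept nearly the same ratio, 0.576 ± 0.0250 in the Ad-Con libraries and 0.564 ± 0.0816 in the Ad-PDK4 libraries (SD, n = 3, no test).

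Egln2 (ENSMUSG00000058709, chr7:27158658-27166802, minus strand), which encodes PHD1, was the most abundant of the hydroxylase genes. It had 37.0, 40.9 and 39.4 FPKM in the Ad-Con libraries and 35.0, 41.1 and 32.9 in the Ad-PDK4 libraries, where replicate 2 lay above every Ad-Con library and the other 2 below them. The log2 fold change was -0.11 (95% interval -0.31 to 0.09, limma adjusted p = 0.334). Without Ad-PDK4 replicate 2 it was -0.20 and past the threshold (limma adjusted p = 0.0356). Leaving out replicate 3 of that group gave -0.04.

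Egln3 (ENSMUSG00000035105, chr12:54178981-54203860, minus strand) encodes PHD3, a strongly hypoxia-inducible hydroxylase in many cells. It had 3.19, 3.44 and 3.32 FPKM in the Ad-Con libraries and 3.82, 3.20 and 4.01 in the Ad-PDK4 libraries, and the groups overlapped. Its log2 fold change was 0.14 (95% interval -0.10 to 0.38, limma adjusted p = 0.315), 0.23 when Ad-PDK4 replicate 2 was left out and 0.07 when replicate 3 was, and it passed the threshold in neither. With the Egln1 rise the makeup of the prolyl hydroxylase RNA differed: Egln1 made up 22.0 ± 1.40% of the summed Egln FPKM in the Ad-Con libraries and 31.6 ± 3.08% in the Ad-PDK4 libraries, Egln2 71.9 ± 1.36% and 62.0 ± 4.09%, and Egln3 6.10 ± 0.0443% and 6.33 ± 1.03% (SD, n = 3, no test).

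Hif1an (ENSMUSG00000036450, chr19:44562850-44576274, plus strand), the asparaginyl hydroxylase also called FIH, had 6.54, 7.07 and 6.44 FPKM in the Ad-Con libraries and 7.30, 7.68 and 7.90 in the Ad-PDK4 libraries. The groups did not overlap, and the log2 fold change of 0.19 (95% interval 0.03 to 0.34) fell just short of the threshold (limma adjusted p = 0.0536). It passed after rescaling to TPM (0.23, limma adjusted p = 0.0242), in limma-voom on the recovered reads (0.19, limma adjusted p = 0.0333) and without Ad-Con replicate 2 (0.23, limma adjusted p = 0.0490). Vhl (ENSMUSG00000033933, chr6:113623959-113631633, plus strand), the substrate receptor of the ligase, had 12.7, 10.8 and 11.5 FPKM in the Ad-Con libraries and 11.9, 12.0 and 11.6 in the Ad-PDK4 libraries. The Ad-PDK4 values lay inside the Ad-Con range, and the log2 fold change was 0.03 (95% interval -0.14 to 0.19, limma adjusted p = 0.798), with a sign that turned under quantile normalization and without Ad-Con replicate 2.

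**Figure D3:**
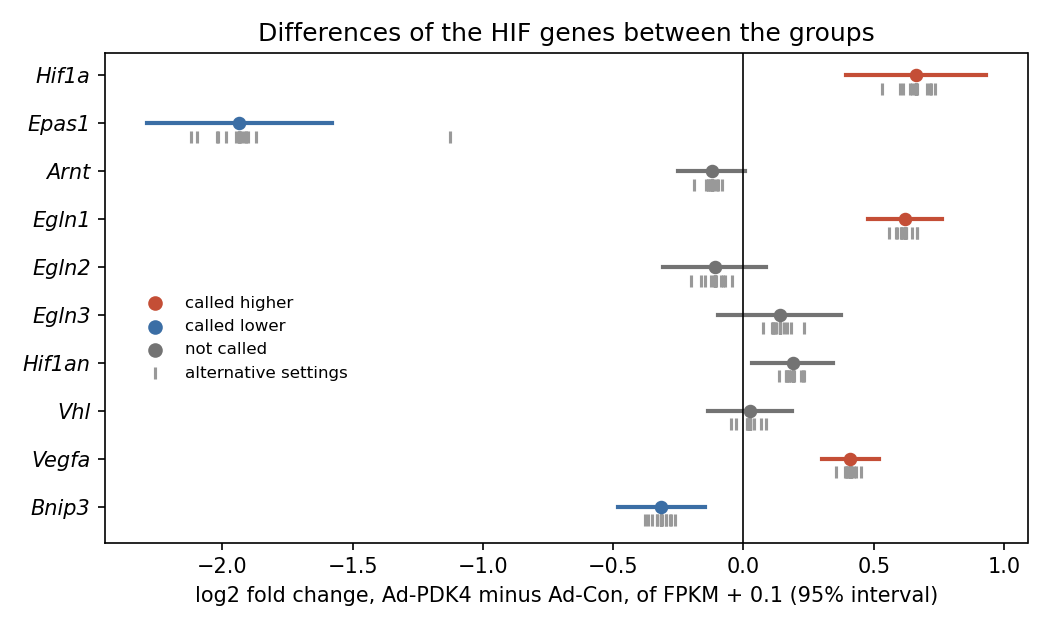
Log2 fold change of FPKM + 0.1 for each member, Ad-PDK4 minus Ad-Con, with its 95% interval from limma; red marks genes called higher, blue genes called lower and grey genes that did not pass an adjusted p of 0.05, and the ticks under each point are the values under the alternative settings. Epas1 stands at -1.93, with its pseudocount-of-1 value at -1.12, and the intervals of Arnt, Egln2, Egln3 and Vhl cross 0.

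Of the members outside the HIF system itself, known as its targets, Vegfa rose and Bnip3 fell. Vegfa (ENSMUSG00000023951, chr17:46016993-46032369, minus strand), the endothelial growth factor gene and a classic HIF target, had 31.4, 30.7 and 29.7 FPKM in the Ad-Con libraries and 40.0, 41.6 and 40.5 in the Ad-PDK4 libraries. The replicates were tight and the groups clear of each other. The mean rose 1.33-fold, from 30.6 ± 0.887 to 40.7 ± 0.818 FPKM (SD, n = 3), or 0.41 on the log2 scale (SE 0.05, 95% interval 0.30 to 0.52, limma adjusted p = 0.000338).

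Bnip3 (ENSMUSG00000078566, chr7:138890836-138909519, minus strand), whose product sits on the outer mitochondrial membrane and recruits the autophagy machinery, had 14.3, 13.9 and 15.7 FPKM in the Ad-Con libraries and 11.2, 11.4 and 12.6 in the Ad-PDK4 libraries. Each Ad-PDK4 library lay below each Ad-Con library. The mean fell from 14.6 ± 0.962 to 11.7 ± 0.761 FPKM (SD, n = 3), 1.25-fold lower, or -0.32 on the log2 scale (SE 0.07, 95% interval -0.48 to -0.15, limma adjusted p = 0.00930). Its level is less certain than that of the other members, because 66.5% of its longest transcript matches 4 further genes (AC160336.1, Gm16439, Gm45507 and Gm6532), to which at most 3 reads per library were assigned. One of these, Gm45507, is antisense to Bnip3, and without a statement that counting used strand the reads of such a pair cannot be told apart.

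The order of the members by level differed between the groups in its upper part. In the Ad-Con libraries it ran Egln2 (39.1 FPKM), Vegfa (30.6), Hif1a (20.8), Bnip3 (14.6), Egln1 (11.9), Vhl (11.6), Arnt (11.4), Hif1an (6.68), Egln3 (3.32) and Epas1 (2.38), and the neighbours Egln1, Vhl and Arnt did not differ beyond their spread. In the Ad-PDK4 libraries Vegfa (40.7 FPKM) stood first and clear of Hif1a (33.2), while Egln2 (36.3) between them overlapped both, followed by Egln1 (18.4), then Vhl (11.8) and Bnip3 (11.7), which overlapped, then Arnt (10.5), Hif1an (7.63), Egln3 (3.68) and Epas1 (0.551). Egln1 thus passed Bnip3, and Epas1 was last in both.

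Across the 6 libraries the genes whose log2 levels followed Hif1a most closely, among 7730 others averaging 5 FPKM or more, were Ptpn2, Ap1g1 and Cpne3 (Pearson r of 0.994 each). Those most like Epas1, among 7731, were Mapk8ip1, Myo5a and Pde8a (Pearson r of 0.999, 0.999 and 0.999). High coefficients were common, as 276 genes exceeded 0.95 with Hif1a and 773 with Epas1. These are descriptions over 6 libraries that share the group difference.

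A further 118 genes of the pathway were compared in 8 lists, of which 102 passed the filter. Together 40 rose (39.2%) and 19 fell (18.6%), beside 21.8% and 20.8% of all tested genes, and their median log2 fold change was 0.12. The lists were chosen with earlier results of these data known, so these shares are descriptions only. For 71 of the 102 the groups stood apart without overlap, beside 54.3% of all tested genes. Of the 102, 11 were called higher and at least 2-fold, where 3.95% of all genes were, and 2 were called lower and at least 2-fold, where 2.68% were. Among the 11, Angpt1 and Slc16a3 passed the filter only through the Ad-PDK4 group. The other 16 fell under the filter, and 4 of these had no more than 3 reads in any library.

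**Figure D4:**
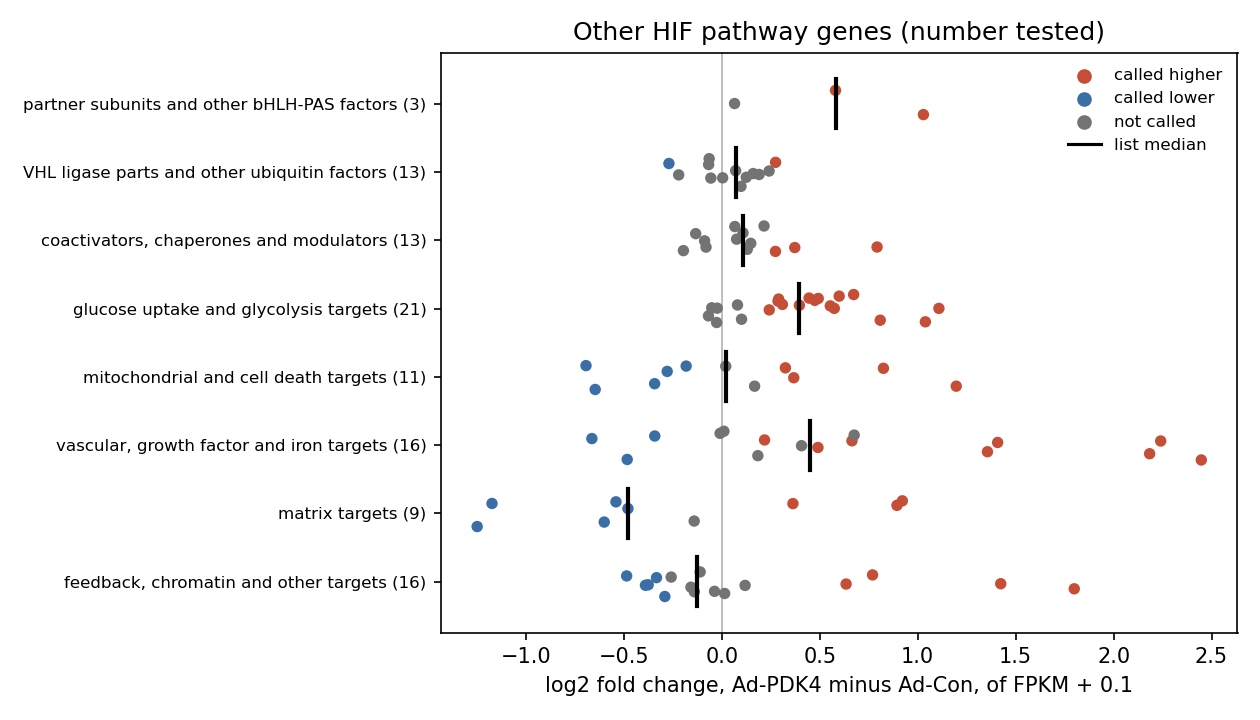
Log2 fold change of FPKM + 0.1, Ad-PDK4 minus Ad-Con, of the tested genes in 8 lists of HIF pathway genes other than the members, with the number tested in parentheses; each point is 1 gene, colours mark the call at an adjusted p of 0.05 and the black bar is the list median. In the glycolysis list 15 of 21 genes rose and none fell, beside 21.8% and 20.8% of all tested genes. The matrix list spreads from -1.25 to 0.92.

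Of the other factors of the same protein family, 3 were tested and 2 rose, where 21.8% of all tested genes did. Ahr, the aryl hydrocarbon receptor, which also pairs with ARNT, had 2.49, 2.27 and 1.89 FPKM in the Ad-Con libraries and 4.66, 4.16 and 5.01 in the Ad-PDK4 libraries, a rise of 1.03 on the log2 scale (limma adjusted p = 0.000396). Arntl, the clock factor BMAL1, rose by 0.58 on the log2 scale (limma adjusted p = 0.0277), a call lost in 5 of 16 alternatives: with the replicate block (limma adjusted p = 0.0659) and without Ad-Con replicate 2 (0.53), Ad-Con replicate 3 (0.53), Ad-PDK4 replicate 2 (0.54) or Ad-PDK4 replicate 3 (0.54). Arnt2, a second beta subunit known chiefly from neurons, was at 2.99 ± 0.180 and 3.14 ± 0.302 FPKM (SD, n = 3; log2 fold change 0.06, 95% interval -0.17 to 0.30, limma adjusted p = 0.640), and its sign turned without Ad-PDK4 replicate 1. Hif3a, the third alpha subunit, had 1, 3 and 3 reads in the Ad-Con libraries and none in the Ad-PDK4 libraries, which is too few to compare.

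Of 13 tested parts of the VHL ligase and related ubiquitin factors 1 rose and 1 fell, with a median log2 fold change of 0.07. That is 7.69% in each direction, beside 21.8% and 20.8% of all tested genes. Rbx1, the RING subunit that brings in the ubiquitin-loaded enzyme, rose from 23.2 ± 0.725 to 28.1 ± 0.579 FPKM (log2 fold change 0.27, limma adjusted p = 0.00304). Rack1, which promotes degradation of HIF1A independently of oxygen, fell from 303.1 ± 13.7 to 251.4 ± 14.7 FPKM (log2 fold change -0.27, limma adjusted p = 0.00775). Under quantile normalization the Rack1 value was -0.16 and short of the threshold (limma adjusted p = 0.0521).

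Of 13 coactivators, chaperones and modulators, 3 rose and none fell, with a median of 0.11. The share that rose, 23.1%, was close to the 21.8% of all tested genes, of which 20.8% fell. Hsp90aa1, the inducible form of the chaperone that stabilises HIF1A, rose from 106.3 ± 5.18 to 184.5 ± 17.1 FPKM (log2 fold change 0.79, limma adjusted p = 0.000115), although 65.8% of its longest transcript matches 3 further genes. Ncoa2, a steroid receptor coactivator, rose by 0.37 on the log2 scale (limma adjusted p = 0.00293). Cited2, which competes with the alpha subunits for the coactivator p300 and is itself a HIF target, had 34.2, 32.1 and 38.2 FPKM in the Ad-Con libraries and 43.7, 41.1 and 36.6 in the Ad-PDK4 libraries. The groups overlapped, and its log2 fold change of 0.22 did not pass (limma adjusted p = 0.0774), though it passed in 5 of 17 alternatives, among them those leaving out Ad-Con replicate 3 (0.28) or Ad-PDK4 replicate 3 (0.29).

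The target genes were 73 tested genes in 5 lists, of which 34 rose and 18 fell, with a median of 0.18. That is 46.6% and 24.7%, beside 21.8% and 20.8% of all tested genes. The list for glucose uptake and glycolysis was the most one-sided of them: 15 of 21 (71.4%) rose, none fell and the median was 0.40. Slc2a1, the glucose transporter GLUT1, had 10.4, 10.7 and 9.72 FPKM in the Ad-Con libraries and 16.6, 17.3 and 15.4 in the Ad-PDK4 libraries (log2 fold change 0.67, limma adjusted p = 0.000137). Ldha, which turns pyruvate into lactate, had 70.8, 67.6 and 74.8 FPKM against 96.3, 106.7 and 97.0 (log2 fold change 0.49, limma adjusted p = 0.000467). In both genes every Ad-PDK4 library lay above every Ad-Con library.

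Slc16a3, the lactate exporter MCT4, rose from 0.437 ± 0.0334 to 1.06 ± 0.167 FPKM (log2 fold change 1.11, limma adjusted p = 0.00512), or by 0.52 at a pseudocount of 1. Its Ad-Con mean lay under 0.5 FPKM, so it passed the filter only through the Ad-PDK4 group. Gapdh rose by 1.04 on the log2 scale (limma adjusted p = 0.0476) at only 1.23 ± 0.133 and 2.87 ± 1.62 FPKM. Its level is uncertain, since 35.6% of its longest transcript matches 74 further genes. The call was lost in 9 of 16 alternatives, which included leaving out Ad-Con replicate 1 (1.07), Ad-Con replicate 2 (0.95), Ad-Con replicate 3 (1.09) or Ad-PDK4 replicate 3 (1.201), and the log2 fold change was 0.62 without Ad-PDK4 replicate 1.

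Mitochondrial and cell death targets were divided, with 4 of 11 higher, 5 lower and a median of 0.02. These shares are 36.4% and 45.5%, beside 21.8% and 20.8% of all tested genes. Bnip3l, the close relative of Bnip3 also called NIX, had 43.2, 44.0 and 44.2 FPKM in the Ad-Con libraries and 34.6, 35.2 and 38.6 in the Ad-PDK4 libraries, a difference of -0.28 on the log2 scale (limma adjusted p = 0.00490), with 27.0% of its transcript shared with another gene. Both mitophagy receptor genes were thus lower in all 3 Ad-PDK4 libraries. Mxi1, which opposes MYC, fell from 10.7 ± 0.705 to 6.59 ± 0.217 FPKM (log2 fold change -0.69, limma adjusted p = 0.000153), and Ddit4, an inhibitor of mTORC1 also called REDD1, fell from 45.4 ± 2.14 to 29.3 ± 5.44 FPKM (-0.65, limma adjusted p = 0.00762). Higd1a, a small protein of the respiratory chain, rose from 3.11 ± 0.134 to 5.59 ± 0.131 FPKM (log2 fold change 0.82, limma adjusted p = 8.42e-05; 39.8% of its transcript is shared with 2 other genes). Ak4, a mitochondrial adenylate kinase, rose by 1.197 on the log2 scale (limma adjusted p = 0.00350), or by 0.62 at a pseudocount of 1.

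Vascular, growth factor and iron targets held the 2 largest log2 fold changes of the 8 lists, with 8 of 16 higher, 3 lower and a median of 0.45. The share that rose was above the 21.8% of all tested genes. The share that fell, 18.75%, was slightly below the 20.8% of all tested genes. Adm, which encodes the vasodilator adrenomedullin, had 4.83, 4.40 and 5.45 FPKM in the Ad-Con libraries and 24.9, 28.4 and 27.8 in the Ad-PDK4 libraries. The mean rose 5.53-fold, or 2.45 on the log2 scale (SE 0.09, limma adjusted p = 7.82e-07), and no library came near the other group. Angpt1, the ligand of the endothelial receptor TIE2, had 13, 18 and 8 reads against 106, 66 and 136, which is 2.24 on the log2 scale (limma adjusted p = 0.00207) and 0.82 at a pseudocount of 1, with 17.3% of its transcript shared with another gene. The Angpt1 mean was 0.135 FPKM in the Ad-Con libraries and 1.01 in the Ad-PDK4 libraries, so it passed the filter only through the Ad-PDK4 group.

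Flt1, the VEGF receptor that acts largely as a decoy, fell from 3.50 ± 0.0583 to 2.18 ± 0.0837 FPKM (log2 fold change -0.66, limma adjusted p = 0.000532), so that the ligand gene Vegfa rose and this receptor gene fell. Kdr, another VEGF receptor gene of the list, went the other way, with means of 0.536 and 0.919 FPKM and no overlap. Its log2 fold change of 0.68 did not pass (limma adjusted p = 0.0645). Vldlr, a lipoprotein receptor, fell by 0.48 on the log2 scale (limma adjusted p = 0.000463). Nos2, the inducible nitric oxide synthase gene, was under the filter and was singled out after its values were seen. It had no read in any Ad-Con library and 59, 44 and 84 reads in the Ad-PDK4 libraries, at least 19.8-fold higher when the Ad-Con libraries are set at 3 reads each, and it was not tested.

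Matrix targets were split: 3 of 9 rose (33.3%) and 5 fell (55.6%), beside 21.8% and 20.8% of all tested genes, with a median of -0.48. P4ha1, the catalytic subunit of collagen prolyl 4-hydroxylase, had 46.2, 50.3 and 47.2 FPKM in the Ad-Con libraries and 88.9, 88.4 and 95.2 in the Ad-PDK4 libraries (log2 fold change 0.92, limma adjusted p = 1.00e-05). Lox, which cross-links collagen and elastin, rose from 79.8 ± 3.71 to 148.4 ± 7.45 FPKM (0.89, limma adjusted p = 1.45e-05). In the other direction, Mmp2, a gelatinase, fell from 321.1 ± 27.8 to 134.8 ± 5.18 FPKM (-1.25, limma adjusted p = 6.46e-06) and Fn1, the fibronectin gene, from 507.1 ± 39.9 to 224.8 ± 18.8 FPKM (-1.17, limma adjusted p = 1.99e-05). Of the matrix genes among the fibroblast markers, Col1a1, Col3a1 and Lum fell as well and Dcn rose.

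Feedback, chromatin and other targets had 4 of 16 higher and 5 lower, with a median of -0.13. The share that rose was close to the 21.8% of all tested genes. The share that fell, 31.25%, was above the 20.8% of all tested genes. Nfil3, a circadian and immune repressor, rose from 2.81 ± 0.291 to 10.0 ± 1.02 FPKM (log2 fold change 1.799, limma adjusted p = 9.93e-06), and Tmem45a rose from 6.97 ± 0.0699 to 18.9 ± 1.42 FPKM (1.42, limma adjusted p = 2.61e-06). Of the histone demethylase genes named here, Kdm6b, which acts on H3K27, fell by 0.49 on the log2 scale (limma adjusted p = 0.00209), while Kdm3a, a common hypoxia target that acts on H3K9, was at 11.3 ± 0.262 and 10.5 ± 0.538 FPKM (-0.11, limma adjusted p = 0.175; -0.18 and limma adjusted p = 0.0443 under quantile normalization). Zfp395 fell by 0.39 on the log2 scale (limma adjusted p = 0.00293).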

How the data were processed

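The deposited table held FPKM as computed by the authors, in 1 column for each library, together with gene lengths. The submitters' processing notes name CASAVA 1.8, fastp, HISAT2 2.0.5, featureCounts 1.5.0-p3 and DESeq2 1.20.0, and the build GRCm39. However, the coordinates in the table are those of GRCm38, since 98.3% of the 54495 identifiers found in GENCODE M21 had the same coordinates there, 9 of the 10 members among them (Epas1 starts elsewhere), and the table's coordinates are given here. Whether counting used strand is not given in the sources used here. The labels and the methods name different library kits.

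FPKM times gene length gave whole reads in every library (100% of non-zero values, within 0.01 reads), so totals were recovered. A group with 3 reads or fewer in every library was taken as at the detection floor, which covers counting error only. log2(FPKM + 0.1) was compared with limma 3.58.1 in R 4.3.3 over all 6 libraries without covariates, with trend and robust moderation, for genes averaging 0.5 FPKM or more, and two-sided p-values were adjusted by Benjamini-Hochberg over all genes tested. Each log2 fold change is on this scale, which understates the change of low genes. Shared sequence was searched in windows of 100 bases.

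The members and the lists were chosen with earlier results of these data known. Genes of the lists were named by a rule: the 2 largest rises and the 2 largest falls among called genes of each list, with Ldha, Slc2a1, Bnip3l, Hif3a, Arnt2, Cited2, P4ha1 and Kdm3a. Nos2 and Kdr were named outside that rule. Alternatives were other pseudocounts (1 and 0.01), filters (none, or a mean FPKM of 5) and scalings (TPM, median of ratios, without genes of the mitochondrial chromosome, quantile), plain moderation, a replicate block, limma-voom on recovered reads and leaving out each library. The fits were also run on simulated reads, with far fewer changed genes than were called here and 1 fixed spread between libraries. That run therefore does not measure the error rate of these calls.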

Additional observations from a re-analysis of the deposited data

How the results depend on the processing

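Hif1a (0.53 to 0.74), Egln1 (0.56 to 0.67), Vegfa (0.35 to 0.45) and Bnip3 (-0.38 to -0.26) kept their direction and their call in all 17 alternatives, and Epas1 (-2.12 to -1.12) in the 16 that could test it. At a minimum mean FPKM of 5, only 1 member was called lower in place of 2, because that filter removes Epas1. The sign of Vhl turned under quantile normalization (-0.048) and without Ad-Con replicate 2 (leave-one-out range -0.0293 to 0.087), and that of Arnt2 without Ad-PDK4 replicate 1 (-0.0034 to 0.1306); none of these values passed the threshold, and the cause was not tested. Leaving out each library in turn gave 3 to 4 members higher and 2 to 3 lower, 36 to 39 other pathway genes higher and 16 to 19 lower, and 2324 to 2700 genes higher and 2167 to 2694 lower over the whole table. The median of all tested genes moved to 0.04 under TPM and to -0.04 under quantile normalization. Same-numbered libraries of the groups did not deviate together (correlations of -0.046, -0.031 and -0.001 for replicates 1, 2 and 3). With 3 libraries per group these values cannot decide whether such libraries shared a mouse, a culture or a run. With the replicate block 3 members were higher and 2 lower, and 38 other pathway genes higher and 17 lower. Among the members Epas1 had the fewest reads, 49 to 61 per library labelled Ad-PDK4, and so the widest counting error.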
